A study of Bos taurus with 6 samples.

Results

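Maternal oocyte transcripts were examined in bovine blastocysts from oocytes matured in vitro with or without melatonin (MT). The 10 genes were taken as the rows of the deposited table whose gene name was OOEP, NLRP5, TLE6, PADI6, ZAR1, BTG4, LHX8, FIGLA, BMP15 or ZP3. Each symbol matched a single row, so 10 of the 36075 genes in the table were studied. The MT-treated group came from cumulus-oocyte complexes of slaughterhouse cows that were matured for 22 h with 1e-07 mol/L MT, and the control group from complexes matured for the same time with 0 mol/L MT. Both groups were then fertilized and cultured by the same procedure, and blastocysts were snap-frozen for RNA sequencing. Each group had 3 libraries from 3 in vitro production runs, and each library was made from a pool of 3 blastocysts. Concentration, time, runs and pool size are from the study's methods, because the labels do not give them.

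A growing oocyte stores messenger RNA and protein that carry the embryo until its own genome is switched on. OOEP, NLRP5 and TLE6 are parts of the subcortical maternal complex, an assembly under the oocyte membrane that early cleavage depends on. PADI6 belongs to the protein lattices of the oocyte cytoplasm, which are tied to that complex. FIGLA and LHX8 are transcription factors of the oocyte, and FIGLA drives the genes of the zona pellucida. ZP3 is a glycoprotein of that egg coat, and BMP15 is a growth factor secreted by the oocyte to the surrounding cumulus cells. ZAR1 binds and stores maternal messenger RNA, and BTG4 brings the CCR4-NOT deadenylase to maternal messenger RNA so that it is cleared. By the blastocyst stage most of these transcripts are known to have been degraded.

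Values were given in TPM, a unit of transcript abundance that corrects for gene length and for the total of the library, so levels of different genes can be set side by side. The libraries differed strongly between the groups in how many genes were listed above 0, with 8854 to 8953 genes in control and 14372 to 14408 in MT-treated libraries. Listed TPM summed to 936783 to 937698 in control and to 912686 to 913707 in MT-treated libraries, and the depth in reads was not used here. By their labels the samples were blastocysts. The trophectoderm keratin KRT8 lay between 6756 and 8828 TPM and KRT18 between 2726 and 3694 TPM in the 6 libraries. Of the trophectoderm markers, 5 of 6 were higher with MT and 1, KRT8, lower (limma, adjusted p under 0.05), and the call of KRT8 turned to higher after median centring. Of the inner cell mass markers 2 of 3, and of the hypoblast markers both of those tested, were higher, where 61.6% of all tested genes were higher. For NANOG, SOX2, GATA6, PDGFRA and the trophectoderm marker CDX2 a difference was built into the selection, since all 5 passed the filter on low values through the MT-treated libraries alone. SOX2 no longer passed after quantile normalization (adjusted p = 0.0742 by limma). GATA2 averaged 7.07 TPM in control and 49.1 TPM with MT, GATA6 0.327 and 32.0 TPM, and SOX2 0.00667 and 6.54 TPM. PDGFRA was listed at 0 in each control library and at 22.5, 22.9 and 24.2 TPM with MT. The part of these differences in the values of the maternal genes was not tested. The trophectoderm factor CDX2 and the pluripotency factor NANOG, however, were listed at 0 in every control library and at 15.0 to 17.2 and 8.23 to 8.93 TPM with MT. Of 12 markers of the blastocyst lineages, 4 were listed at 0 in all control libraries. A value of 0 in control thus also occurred among markers of the blastocyst lineages, and below a gene is only said to be listed at 0. A gene listed at 0 may have been absent or not counted, which cannot be told apart in TPM. An effect of MT and a difference in how the libraries of the groups were prepared or processed also cannot be told apart here, which bears on every comparison below, that of OOEP included.

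Of the 10 maternal genes, 1 was above 0 in each control library and 6 were above 0 in each MT-treated library. OOEP was listed in both groups and fell. TLE6, LHX8, BTG4, ZAR1 and BMP15 were listed at 0 in every control library and above 0 in every MT-treated library, and NLRP5, PADI6, FIGLA and ZP3 were at 0 in all 6 libraries. Among all genes of the table, 54.8% were at 0 in all 6 libraries. Together the 10 genes summed to 45.6 to 49.3 TPM in control, all of it OOEP, and to 57.9 to 59.2 TPM in MT-treated libraries. The plot of all 10 genes by library shows these 3 patterns.

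**Figure D1:**
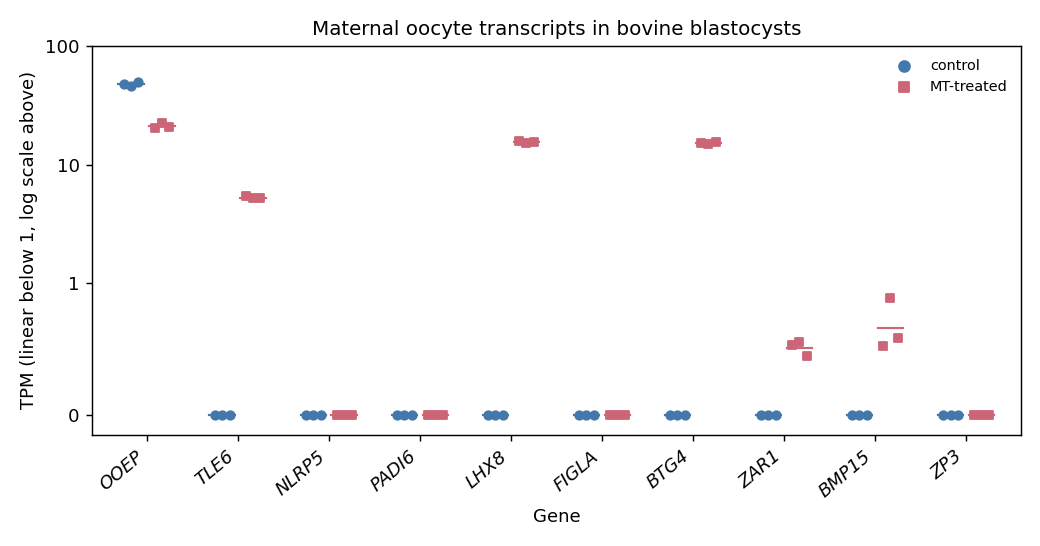
TPM of the 10 maternal oocyte genes in each library, with 3 control libraries (circles) and 3 MT-treated libraries (squares), horizontal lines at group means, and an axis that is linear below 1 and logarithmic above. OOEP sits at 45.6 to 49.3 TPM in control and 20.5 to 22.5 TPM in MT-treated libraries, while 5 genes leave 0 only in the MT-treated libraries and 4 stay at 0.

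For the test, values were taken as log2(TPM + 1), and the 11953 genes with at least 1 TPM in at least 3 libraries were fitted with limma, a linear model that borrows information on replicate spread from the other genes. A gene was called at a Benjamini-Hochberg adjusted p-value under 0.05. Of the 10 genes, 4 passed the filter on low values, and all 4 were called, 3 of them higher and 1 lower in MT-treated blastocysts. Over all tested genes, 61.6% were called higher and 34.1% lower, and the groups did not overlap for 96.1%. Being called was thus nearly universal and says little of the maternal genes in particular. TLE6, LHX8 and BTG4 passed the filter through the MT-treated libraries alone, so a difference between the groups was built into their selection. The same holds for every other tested gene that was under 1 TPM in all libraries of one group. Among these were SOHLH2, CNOT6, BTG3 and PABPC1L in control and CNOT10 and YBX2 with MT. The p-values of tested genes so selected, TLE6, LHX8 and BTG4 included, add nothing to the values and are not given below. Whether a lower level reflects fewer cells with a transcript or less of it per cell cannot be told apart in these pools.

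Among the members of the subcortical maternal complex, OOEP (ENSBTAG00000019600), which encodes a KH domain protein of the complex, was the only member above 0 in control. It had 48.2, 45.6 and 49.3 TPM in control and 20.5, 22.5 and 20.9 TPM with MT. Every MT-treated value lay below every control value. The mean went from 47.7 ± 1.92 to 21.3 ± 1.08 TPM (SD, n = 3 each), which was 2.24-fold lower. On the log2(TPM + 1) scale it fell by 1.13 (standard error 0.05, adjusted p = 9.55e-07 by limma). Of all genes called lower, 53.4% fell by more than OOEP did.

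The size of this fall depended on the scale, although its direction did not. For the 5988 genes at 1 TPM or more throughout, the log2 fold change had a median of -0.27. Median centring on these genes removed an offset of -0.48 between the groups, and the log2 fold change of OOEP then was -0.65 (standard error 0.05, adjusted p = 1.46e-05 by limma). After quantile normalization it was -1.08 (adjusted p = 8.76e-06 by limma).

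Among all genes listed above 0 in a library, OOEP was higher than 68.2%, 67.1% and 68.2% in the control libraries and than 67.0%, 68.9% and 67.6% in the MT-treated libraries, and these ranges overlapped. These ranks are over unequal sets, since more genes are above 0 in the MT-treated libraries. Over a common set, the 7352 genes above 0 in all 6 libraries, OOEP stood at the 62.7 ± 0.868 percentile in control and at the 49.95 ± 1.09 percentile in MT-treated libraries (SD, n = 3 each). The groups did not overlap (exact permutation test, two-sided, p = 0.1, and no lower p can be reached with 3 libraries a group).

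A comparison within each library needs no scaling, and OOEP was set against a pair of other genes chosen after their values were seen. DPPA3, a maternal factor that protects DNA methylation and is also made by pluripotent cells, had 197, 194 and 198 TPM in control and 107, 110 and 106 TPM in MT-treated libraries. The ratio of OOEP to DPPA3 was 0.243 ± 0.00749 in control and 0.198 ± 0.00606 in MT-treated libraries (SD, n = 3 each, exact permutation test, two-sided, p = 0.1). The ratio was lower in 3 of 3 MT-treated libraries. POU5F1, a pluripotency factor, had 189.8 ± 1.49 TPM in control and 193 ± 1.83 TPM in MT-treated libraries (SD, n = 3 each) and was not called (adjusted p = 0.223 by limma), although it was called higher after median centring and after quantile normalization. As POU5F1 was picked for its even level, the ratio of OOEP to POU5F1, 0.251 ± 0.00825 in control and 0.111 ± 0.00664 with MT (SD, n = 3 each), restates the fall in OOEP.

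**Figure D2:**
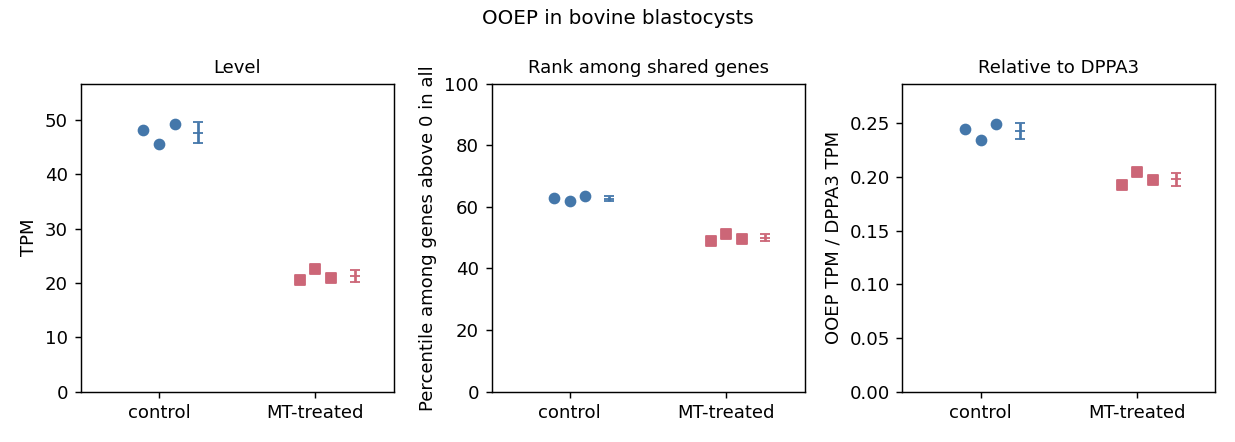
OOEP in 3 control (circles) and 3 MT-treated libraries (squares) as TPM (left), as percentile among the 7352 genes above 0 in all 6 libraries (middle) and as ratio to DPPA3 TPM (right), with bars for mean ± SD. All 3 measures are lower in every MT-treated than in every control library, with a mean percentile of 62.7 in control and 49.95 in MT-treated libraries.

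TLE6 (ENSBTAG00000001152), a co-repressor family protein that joins OOEP and NLRP5 in the complex, was listed at 0 in each control library. It had 5.38, 5.18 and 5.19 TPM with MT, higher than 36.0% to 36.5% of the genes above 0 in the same library. NLRP5 (ENSBTAG00000013247) and PADI6 (ENSBTAG00000038945) were at 0 in all 6 libraries. RefSeq places TLE6 in overlap with TLE2 and ZNF77, and TLE2 was at 0 in all 6 libraries.

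Of 9 other symbols listed for the complex and the lattices, 6 were in the table, and UBE2D3 alone passed the filter on low values. UBE2D3, a ubiquitin-conjugating enzyme found in the lattices and used by most cells, fell from 844 ± 9.04 to 447 ± 9.30 TPM (SD, n = 3 each, adjusted p = 2.40e-08 by limma). KHDC3L, which partners OOEP in the complex and is its neighbour in the genome, was at 0 in all 6 libraries, as was NLRP14. ZBED3, UHRF1 and KPNA7 were at 0 in all control libraries and at no more than 0.65 TPM in any MT-treated library.

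The oocyte transcription factors differed from each other. LHX8 (ENSBTAG00000019192), a LIM homeobox factor needed for the formation of follicles, was listed at 0 in each control library. It had 15.8, 15.1 and 15.4 TPM with MT. These values lay above 58.8% to 60.2% of the genes detected in the same library. FIGLA (ENSBTAG00000008905) was at 0 in all 6 libraries.

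Among other oocyte growth factors and transcription factors, 7 of 8 were in the table and 3 were tested, 2 of them higher and 1 lower, where 61.6% of all tested genes were higher and 34.1% lower. Both higher genes, SOHLH2 and TAF4B, were at 0 in all control libraries. SOHLH2, a helix-loop-helix factor of early oocytes, was listed at 0 in each control library and had 13.3, 10.6 and 11.01 TPM with MT. KIT, the receptor by which the oocyte receives the ligand of granulosa cells and which other cells also make, had 64.0, 91.6 and 60.4 TPM in control and 13.5, 14.98 and 14.01 TPM in MT-treated libraries. It was 5.08-fold lower (adjusted p = 1.43e-05 by limma), and control replicate 2 stood above the other control libraries. NOBOX, GDF9 and GPR3 were at 0 in all 6 libraries.

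BTG4 (ENSBTAG00000034346), the adaptor for clearing maternal messenger RNA, was listed at 0 in each control library. It had 15.2, 15.0 and 15.5 TPM with MT, with an SD of 0.298 TPM against 0.345 TPM for LHX8. RefSeq places BTG4 in overlap with HOATZ, which was at 0 in each control library and at 15.7, 19.8 and 14.8 TPM with MT. The strand setting of the authors' counting is not given in the sources used here, so reads of BTG4 and HOATZ cannot be told apart where the genes overlap.

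ZAR1 (ENSBTAG00000004886) was listed at 0 in each control library and at 0.53, 0.55 and 0.45 TPM with MT. It did not pass the filter on low values. In the fit without that filter 54.5% of genes were called higher, ZAR1 among them. It entered that fit through the MT-treated libraries alone, so this call adds nothing to the values. RefSeq places ZAR1 in overlap with FRYL, which was at 0 in each control library and at 6.20, 6.48 and 6.11 TPM with MT, many times the level of ZAR1. The part of shared reads in the value of ZAR1 was not tested.

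BTG4 acts through the CCR4-NOT complex, and 20 genes of messenger RNA decay were listed with it. All 20 were in the table and 18 were tested, of which 6 were higher and 12 lower, where 61.6% of all tested genes were higher and 34.1% lower. Median centring changed this to 9 higher and 8 lower genes, and quantile normalization to 4 higher and 14 lower genes. Of all 11953 tested genes, 8412 were higher and 3038 lower after centring, and 6614 and 4604 after quantile normalization. CNOT7 and CNOT8, the catalytic subunits that BTG family proteins bind, were both lower as deposited. CNOT8 went from 61.8 ± 1.59 to 28.3 ± 1.31 TPM and CNOT7 from 20.5 ± 0.905 to 16.2 ± 0.545 TPM (SD, n = 3 each), and the call of CNOT7 turned to higher after median centring.

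Other genes of this machinery moved further. CNOT6, another deadenylase subunit, was at 0 in each control library and at 30.1, 25.6 and 25.1 TPM with MT. CNOT10, a structural subunit, had 107, 109 and 102 TPM in control and 0.02, 0 and 0.02 TPM with MT, and so passed the filter through control alone. PAN3, which guides the other cytoplasmic deadenylase, went from 83.8 ± 6.65 to 14.01 ± 0.498 TPM (SD, n = 3 each, adjusted p = 6.48e-08 by limma).

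BTG4 and its relatives also split. BTG3 was at 0 in each control library and at 14.8, 15.6 and 15.0 TPM with MT, close to the level of BTG4. BTG1 went from 100.1 ± 5.73 to 54.8 ± 1.24 TPM and BTG2 from 13.1 ± 0.655 to 7.41 ± 0.351 TPM (SD, n = 3 each), and both were called lower on all 3 scales. The plot of BTG4 with the decay genes shows genes that moved both ways.

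**Figure D3:**
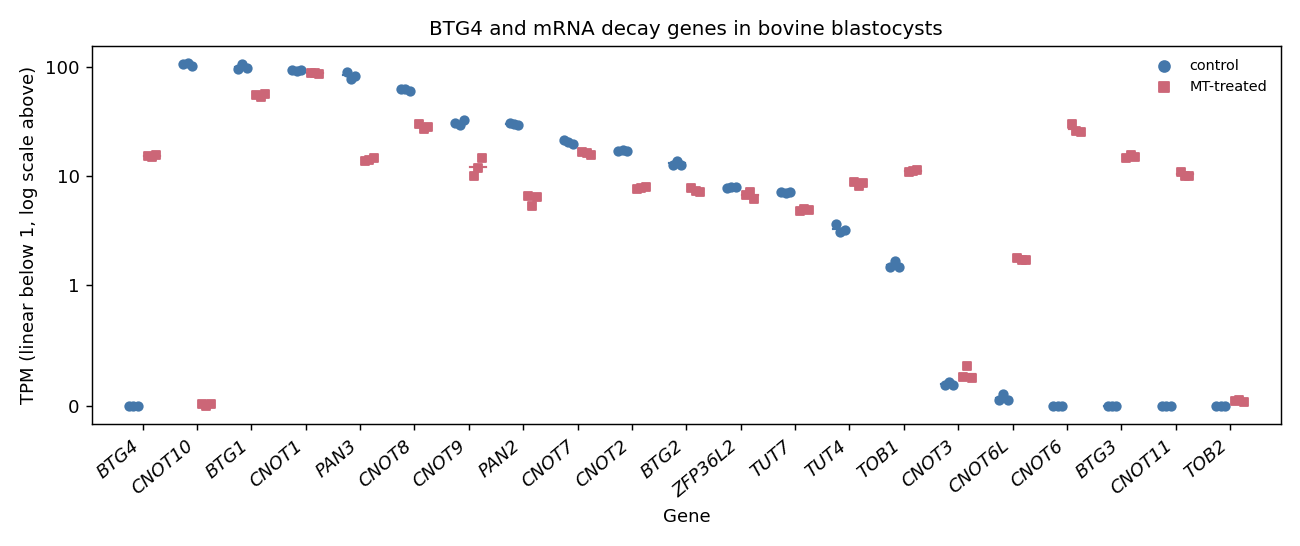
TPM of BTG4 and of 20 messenger RNA decay genes, ordered by control mean, in 3 control (circles) and 3 MT-treated libraries (squares), with lines at group means and an axis that is linear below 1 and logarithmic above. CNOT10 drops from above 102 TPM to at most 0.02 TPM, whereas BTG4, CNOT6, BTG3 and CNOT11 are listed at 0 in control and at 10.01 TPM or more in the MT-treated libraries.

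The list of messenger RNA storage genes, the companions of ZAR1, had 11 of 12 symbols in the table, of which 6 were tested, 3 higher and 3 lower, beside 61.6% higher and 34.1% lower over all tested genes. The 3 higher genes, PABPC1L, ZAR1L and LSM14B, were at 0 in all control libraries. PABPC1L, the poly(A)-binding protein of oocytes, was at 0 in each control library and at 6.27, 5.31 and 6.52 TPM with MT. YBX2, the germ cell Y-box protein that packages stored messenger RNA, had 5.35, 6.41 and 7.38 TPM in control and 0.03, 0 and 0.10 TPM with MT, and also passed the filter through control alone. EIF4ENIF1, which holds messenger RNA in a silent state, went from 22.4 ± 0.656 to 5.77 ± 0.208 TPM (SD, n = 3 each, adjusted p = 3.30e-08 by limma). CPEB1, DAZL, DDX4, EIF4E1B and PATL2 were at 0 in all 6 libraries.

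BMP15 (ENSBTAG00000045782), the secreted factor, was listed at 0 in each control library and at 0.52, 0.89 and 0.58 TPM with MT, below the filter. In the unfiltered fit it was called higher, as were 54.5% of genes. BMP15 entered that fit through the MT-treated libraries alone, so this call adds nothing to the values. It lay above 16.97% to 19.7% of the genes detected in the same MT-treated library. ZP3 (ENSBTAG00000014834) was at 0 in all 6 libraries. Of the other zona pellucida and oocyte surface genes, 6 of 8 were in the table, and ZP2, ZP4, ASTL, IZUMO1R and OOSP2 were at 0 in all 6 libraries. The remaining gene was CD9, a membrane protein of the oocyte and of many other cells, which went from 1785 ± 20.6 to 1150 ± 32.3 TPM (SD, n = 3 each, adjusted p = 3.32e-07 by limma).

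In the MT-treated libraries the levels of the 10 genes were ordered as OOEP, LHX8, BTG4, TLE6, BMP15, ZAR1 and then the 4 genes at 0. LHX8 at 15.1 to 15.8 TPM and BTG4 at 15.0 to 15.5 TPM overlapped, as did BMP15 at 0.52 to 0.89 TPM and ZAR1 at 0.45 to 0.55 TPM. OOEP, the pair of LHX8 and BTG4, TLE6, and the pair of BMP15 and ZAR1 did not overlap with each other. In control no order other than OOEP above the rest could be given.

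Across all 6 oocyte lists outside the 10 genes, 61 of 70 symbols were in the table, 21 were at 0 in all 6 libraries and 31 were tested. Of these 31, 12 were higher and 19 lower, where 61.6% of all tested genes were higher and 34.1% lower. Their median log2 fold change was -0.47, against 1.12 over all tested genes, and both sets include genes at 0 in control. Over the genes at 1 TPM or more throughout, which leave such genes out, the median was -0.27. That value is therefore not a like comparison. Median centring gave 15 higher and 15 lower genes, and quantile normalization 10 higher and 21 lower genes, beside the counts over all genes given for each scale above. Of the genes tested, 8 of 31 in these lists and 3 of the 4 maternal genes were at 0 in all control libraries, against 33.8% of all tested genes and 47.2% of those that averaged 5 to 20 TPM with MT. In the list of oocyte chromatin and meiosis genes, 11 of 13 symbols were in the table and 2 were tested. DPPA3 was 1.82-fold lower (adjusted p = 6.00e-08 by limma), and SYCP3, a protein of the meiotic chromosome axis, rose from 8.87 ± 0.765 to 39.6 ± 1.504 TPM (SD, n = 3 each, adjusted p = 2.04e-07 by limma). H1-8, NPM2, WEE2, STAG3, SMC1B and DMC1 were at 0 in all 6 libraries.

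**Figure D4:**
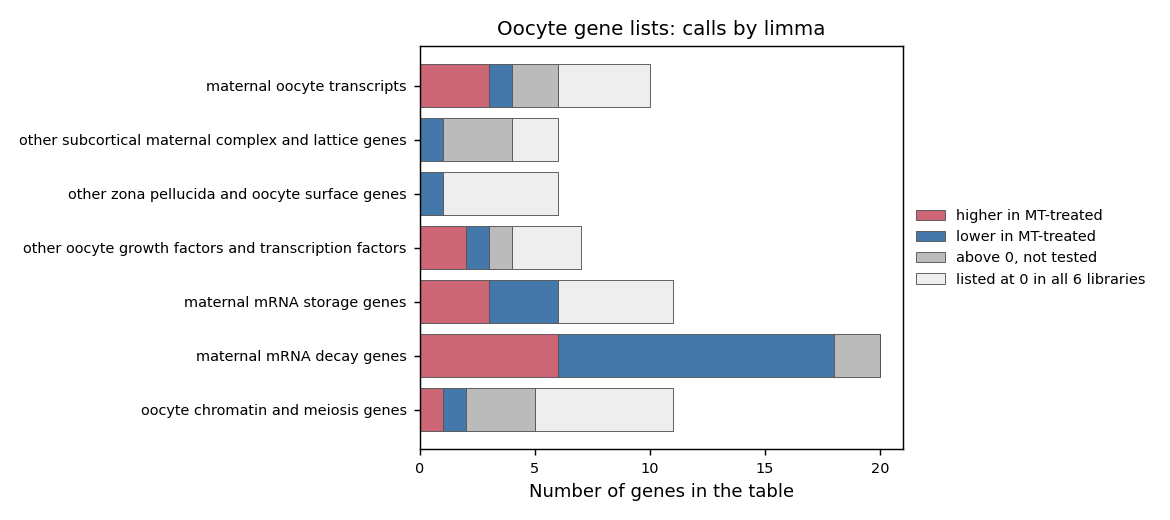
Number of genes of each oocyte list in the table, divided into those called higher (red) or lower (blue) in MT-treated blastocysts by limma, those above 0 but not tested (grey), and those listed at 0 in all 6 libraries (pale). The 18 tested decay genes make up most of the tested genes outside the 10 maternal genes, and 5 of 6 zona and surface genes are at 0 throughout.

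Cumulus and granulosa cells surround the oocyte and would bring maternal tissue into a sample. Of 10 markers of these cells, 9 were in the table and 5, among them FOXL2, INHA and HAS2, were at 0 in all 6 libraries. Among all genes of the table the share at 0 in all 6 libraries was 54.8%. INHBA, GREM1 and CYP19A1 did not exceed 0.10 TPM in any library. FSHR was the exception, with 17.2 to 19.2 TPM in control and 15.0 to 17.1 TPM in MT-treated libraries. It was called lower (adjusted p = 0.0318 by limma), and the call turned to higher after median centring. The summed level of the list was 17.2 to 19.2 TPM in control and 15.1 to 17.1 TPM in MT-treated libraries, nearly all of it FSHR.

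The genes with the most similar values over the 6 libraries were sought by the distance of log2(TPM + 1), as a description. For OOEP these were TAFAZZIN, UTP14A and MYH6, with distances of 0.134, 0.135 and 0.137. For LHX8 they were TREX1, CTIF and PEX7, with distances of 0.0373, 0.0386 and 0.0494, and for BTG4 they were IKBIP, LIN28A and LHX8, with distances of 0.0462, 0.0509 and 0.0530. The genes alike to LHX8 and BTG4 were likewise at 0 in every control library.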

How the data were processed

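RNA of 6 bovine blastocyst pools, 3 control and 3 MT-treated, was measured. According to the study's methods, STAR 2.7.9a was run on ARS-UCD1.3 and reads per gene were then obtained with featureCounts of Subread 1.6.3, whereas the submitters' processing notes name ARS-UCD1.2. The methods name Smart-seq2 and the labels a TruSeq kit. The authors deposited TPM per gene, rounded, and how counts became TPM is not given in the sources used here.

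Groups came from the labels, and libraries were treated as unpaired, although the groups may share production runs. log2(TPM + 1) of genes with at least 1 TPM in at least 3 libraries was fitted with lmFit and eBayes (trend on the mean level) from limma 3.58.1 in R 4.3.3, after the fit was tested on simulated data. P-values were adjusted over all 11953 genes by the Benjamini-Hochberg method. Figures were made with Python 3.11.15 and matplotlib 3.10.9.

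The members and lists were chosen with earlier results of these data known. All 10 genes were named, along with the called genes of each other list with a group mean of at least 5 TPM, up to 2 rises and 2 falls by log2 fold change, genes at 0 throughout, and the 3 most alike genes for the 3 tested members with the highest mean. UHRF1, ZBED3, KPNA7, TAF4B, ZAR1L, LSM14B, CNOT1, CNOT6L, CNOT7, CNOT8, CNOT11, BTG1, BTG2, TOB1, TUT4, TUT7, ZFP36L2, KRT8, CDX2, NANOG, POU5F1, other markers and the overlapping genes were named after their values were seen. Overlaps and neighbours are from RefSeq on ARS-UCD2.0, matched by symbol for 10 of 10 genes. Alternatives were no filter, a minimum of 5 TPM, a pseudocount of 0.1, quantile normalization, median centring, no trend, a replicate block and each library left out. After seeing the data, a fit of only those genes listed above 0 in every library was added.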

Additional observations from a re-analysis of the deposited data

How the results depend on the processing

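The call of OOEP as lower was the same under a pseudocount of 0.1, a minimum of 5 TPM, quantile normalization, median centring, eBayes without the trend, a replicate block and with each of the 6 libraries left out. TLE6, LHX8 and BTG4 were higher under each of these too, which their values of 0 in every control library fix in advance and which is no sign of stability. Without the filter 5 maternal genes were higher, since ZAR1 and BMP15 then entered, and 20 other oocyte genes were higher in place of 12. With only those genes that passed the filter and were also above 0 in all 6 libraries, OOEP was the only maternal gene left. It was called lower (log2 fold change -1.13, adjusted p = 3.65e-07 by limma), so the count of 0 maternal genes higher rests on OOEP alone. Of 21 other oocyte genes in that fit, 4 were higher and 17 lower. Of all 6925 genes in that fit 2814 were higher and 3626 lower, so that most calls were then lower. With each library left out in turn, the log2 fold change of OOEP lay between -1.17 and -1.10 and its adjusted p-value by limma did not exceed 3.44e-05. Among the 18 tested decay genes, CNOT7, CNOT1 and ZFP36L2 turned from lower to higher and TUT7 was no longer called after median centring. TOB1, TUT4 and CNOT6L turned from higher to lower, and CNOT1 from lower to higher, after quantile normalization. The cause was not tested.

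By the study's methods, complexes of each run were pooled and allocated at random to the groups, with all treatments run concurrently. Libraries of the groups may therefore share runs, but the labels do not say which. Replicate numbers were not shown to pair the libraries. The deviations of same-numbered libraries from their group means correlated at 0.0942, -0.000741 and 0.150 across 5988 genes. Control replicates 1 and 3 correlated best with their own number, whereas control replicate 2 did not. With the replicate block, 3 maternal genes were higher and 1 lower, and 7379 of all genes were higher and 4082 lower, in place of 7367 and 4071. TPM holds no counts, and the depth behind the low values of ZAR1 and BMP15 was not used here.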
